A study of Mus with 3 samples.

Results

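The comparison set hippocampal RNA of mice given the oil components of sweet potato shochu by mouth and an amyloid peptide by injection against that of normal control mice. It used the ASO array and the NCO array of a series of 3 arrays. Its members were the gene probes that stood above background on both arrays, with a signal-to-noise ratio of at least 2.6, no bad flag, and a position outside a small dark area, which took out 179 gene probes. There were 19458 such probes of 39429 gene probes on the array, and 17032 of them carried a gene name. One probe a gene, the one with the highest mean signal, gave 13416 of the 23616 named genes, of which 10382 had a single probe.

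All mice were males of the outbred Slc:ddY stock, 6 weeks old, with 10 in each group. NCO mice received water by mouth for 15 days and 5 µL of distilled water on day 8, by a route the labels do not spell out. ASO mice received shochu oil by mouth at 2000 mg per kg per day for 15 days, and 10 nmol of the amyloid fragment Aβ25-35 in 5 µL into a cerebral ventricle on day 8. The remaining group, ACO, had water by mouth and the same peptide. Its values are given beside the others, since ASO against NCO joins the effect of the peptide with that of the oil and cannot tell them apart. The hippocampus was collected on day 16, once the mice had been through a Y-maze, and kept in RNAlater. RNA of 2 mice was joined into a set, 5 sets were joined in equal amounts into 1 pool a group, and 200 ng of each pool was labelled with Cy3.

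Each group was therefore 1 array of 1 pool. No difference between the arrays has a replicate error, no p-value is given, and the spread between mice was not measured. The arrays lay at different positions of 1 slide, so array position and group cannot be told apart. In bulk RNA, more cells of a type and more RNA per cell cannot be told apart either.

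Aβ25-35 is a short fragment of the amyloid beta peptide that aggregates readily and is used in rodents to impair memory and provoke a glial response. Microglia, the resident macrophages of the brain, respond to such material through the receptor Trem2 and its adaptor Tyrobp, and take on a state in which phagocytic, lysosomal and antigen-presenting genes rise. Type I interferons act through Jak and Stat proteins to switch on a group of antiviral genes, and astrocytes respond to injury with intermediate filaments such as Gfap. The hippocampus itself is built of dentate granule cells, pyramidal cells of the CA fields and inhibitory interneurons.

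The RNA carried hippocampal markers on both arrays. Prox1, the transcription factor of dentate granule cells, gave scaled signals as follows: 225 on NCO, 223 on ACO and 179 on ASO. Fibcd1, a marker of CA1 pyramidal cells, read 352 on NCO, 293 on ACO and 331 on ASO. Bok, a marker of CA3, read 2428 on NCO, 2161 on ACO and 2717 on ASO. Among other CA3 markers looked at, Iyd was not above background on either array and Coch only on NCO. Markers of neighbouring tissue were also present: Ttr, the thyroid hormone carrier of the choroid plexus, read 20102 on NCO, 14579.6 on ACO and 15632 on ASO. Drd1, a dopamine receptor of the striatum, read 89.6 on NCO, 85.9 on ACO and 53.4 on ASO. Pomc and Oxt, hormone genes of the pituitary and hypothalamus, were above background on both arrays, as was the thalamic marker Prkcd. Tcf7l2, a further thalamic marker, passed only on ASO. The pituitary hormone gene Prl and the dopamine receptor Drd2 were not above background on either array.

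Differences are given as log2 of the signal on ASO minus log2 of that on NCO, after adding 50 to each scaled signal, which understates the difference of dim genes. Between 50.9% and 53.7% of the probes were above background on the 3 arrays. Over the 13416 genes the 2 arrays correlated with r = 0.994, a description across genes of 2 arrays. The median difference was -0.02 with an SD of 0.22 across genes, and 81.3% of genes lay within 1.2-fold. Probes spotted 10 times gave a median SD of 0.10 between spots, from 0.049 to 0.35, which covers the slide and scan and not the mice. Where a gene had a second probe, the first and second probes correlated only weakly over 3034 genes, r = 0.21. The 6 E1A spike-in control probes above background were all higher on ASO, by 0.14 to 0.68 with a median of 0.31. For a spike-in scale, this median was subtracted from the difference of every gene. The arrays were not rescaled before the 50 was added, which would move dim genes less. Directions below are relative to the bulk of the genes. On that scale the medians of the class I, disease-associated microglia, reactive astrocyte and lysosomal lists described below would lie between -0.11 and -0.02, against -0.33 for all genes. The part of labelling in the results was not tested.

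Few genes lay 2-fold apart, and relative to the bulk of the genes those that did were mostly higher on ASO. At least 2-fold higher on ASO were 23 genes (0.171% of 13416), and at least 2-fold lower were 5 (0.0373%). At 1.5-fold the counts were 216 higher (1.61%) and 35 lower (0.261%). With the spike-in median subtracted from every gene, the balance turned. It went to 8 higher and 21 lower at 2-fold and 44 higher and 1034 lower at 1.5-fold. By sign alone, 46.3% of genes were higher and 53.7% lower. Of the 23 genes, 12 belonged to one of the gene lists used here, and 11 of those to lists of immune, microglial or reactive astrocyte genes. Over the 14 lists of that kind together, 47 of 233 measured genes were at least 1.5-fold higher (20.2%) and 3 were at least 1.5-fold lower, with a median of 0.25. Genes of the other lists gave 13 of 875 (1.49%), and genes of no list 156 of 12308 (1.27%). Some genes belong to several of these lists, and the lists were drawn up with earlier results of these data known, so the counts describe them and do not test them. For ACO against NCO, list medians were 0.16 for antiviral genes and for interferon-induced GTPases, 0.14 for class II, 0.13 for reactive astrocytes and 0.10 for leukocyte surface genes. They were 0.06 for class I, 0.04 for complement, 0.02 for disease-associated and for homeostatic microglia, 0.005 for lysosomal and 0.002 for phagocyte genes.

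**Figure D1:**
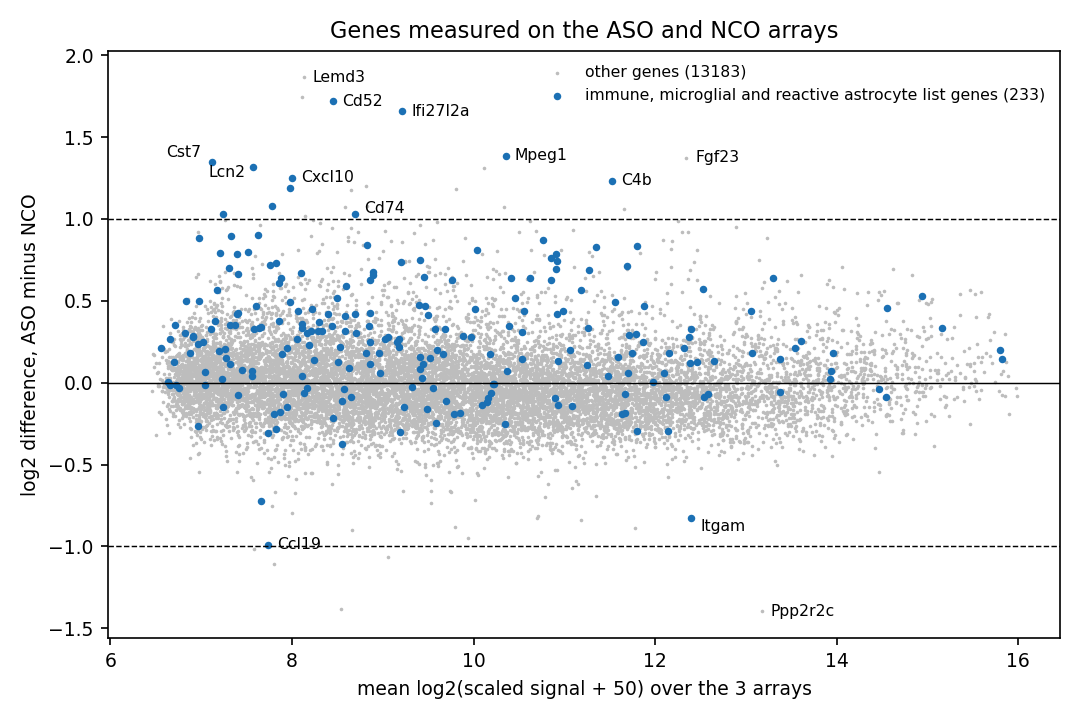
Log2 difference between the ASO and NCO arrays (vertical axis) against the mean log2 signal over the 3 arrays (horizontal axis), 1 point a gene for 13416 genes, with dashed lines at 2-fold. Blue points are the 233 genes of the immune, microglial and reactive astrocyte lists, which make up 11 of the 23 genes above the upper line and none of the 5 below the lower line.

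Interferon-stimulated antiviral genes stood higher on ASO. Of 46 in the list, 27 were measured on both arrays, 24 of them higher and 3 lower, with a median of 0.32 against -0.02 over all genes, and 8 were at least 1.5-fold higher and none lower. Ifi27l2a, a small mitochondrial protein gene strongly induced by type I interferon, read 287 on NCO, 539.6 on ACO and 1012 on ASO, a 3.15-fold difference. Oas1a, an enzyme that senses double-stranded RNA and activates RNase L, differed by 1.08, with 109 on NCO and 286 on ASO. Ifit3, which belongs to the family that binds foreign RNA, read 302 on NCO, 374 on ACO and 581 on ASO. For these genes ACO lay between the other arrays. Isg15, a ubiquitin-like modifier, differed by 0.74 (424 on NCO, 490.2 on ACO and 741 on ASO). Lgals3bp, a secreted glycoprotein, had 2 probes that differed by 0.75 and 0.79. Bst2, which tethers budding virions to the cell, read 292 on NCO, 518 on ACO and 497 on ASO, no higher on ASO than on ACO. At the other end, Adar, the RNA editing enzyme, differed by -0.07, and Trim25, the member closest to 0, read 4005 on NCO, 3917 on ACO and 4016 on ASO.

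A further 10 genes of the list, among them Ifit1, Mx1, Mx2, Oasl1, Xaf1 and Phf11b, were above background only on ASO, and 1, Slfn8, only on NCO. Over the whole array such genes numbered 843 for ASO and 251 for NCO. For Mx2, a dynamin-like antiviral GTPase, the ASO signal was 2.35 times the NCO signal, and for Oasl1 2.42 times. Such ratios set the ASO signal against the higher of the NCO signal and the lowest signal above background on NCO (8.69). They are not lower limits, since the NCO signal could not be told from background. Negative control spots read 18.0 on NCO, above the NCO signal of some genes named below. The ratios use scaled signals without the added 50, so they are not on the scale of the other differences. Both genes were dim, with Oasl1 at 67.3 on ASO.

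The medians of other interferon lists were near or below 0. The interferon-induced GTPases, which attack the vacuoles of intracellular pathogens, gave 6 higher and 6 lower of 12 measured, with a median of 0.03. Gbp3 was the highest at 0.37 and Gbp4 the lowest at -0.31. Tgtp2 read 491 on NCO, 792 on ACO and 389.7 on ASO, highest on ACO. Receptors and transcription factors of the pathway gave 7 higher and 7 lower of 14, with a median of 0.01. Irf8, a factor of microglia and other myeloid cells, was the exception at 0.63 (338 on NCO, 384 on ACO and 550.0 on ASO). Stat2, a transcription factor of the pathway, read 1348 on NCO, 1286 on ACO and 1124 on ASO. Of the interferon-inducible DNA sensors of the PYHIN family, 2 were measured and both were lower, Ifi203 at -0.26 and Ifi208 at -0.13. Another 3 of that list (Ifi204, Ifi207 and Mndal) were above background only on ASO. So was Ifi202b, a gene of the family outside the list, with an ASO to NCO ratio of 2.56. The whole array had 843 genes above background only on ASO and 251 only on NCO.

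Antigen presentation genes of class I were higher by small and even steps. Of 20 measured, 18 were higher and 2 lower, the median was 0.28, and none reached 1.5-fold. H2-K1, a classical class I heavy chain, read 2486 on NCO, 2957 on ACO and 3519 on ASO, with a second probe at 0.22. B2m, the light chain that all class I molecules share, read 3174 on NCO, 3679.6 on ACO and 4406 on ASO. H2-Q4, a further heavy chain, read 21462 on NCO, 22227 on ACO and 29405 on ASO. Heavy chain genes of this family are near-identical in places, so a probe may read more than 1 of them. Psmb8, a catalytic subunit of the immunoproteasome, differed by 0.42 and its fellow subunits Psmb9 and Psmb10 by 0.32 and 0.25. Tap2, a chain of the peptide transporter, was closer to 0 at 0.07. The members below 0 were Pdia3 at -0.14 and Tapbpl at -0.08, both of the peptide-loading step.

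Class II presentation was led by its invariant chain. Cd74, which guides class II molecules to the endosome, read 247 on NCO, 340.3 on ACO and 558 on ASO, a 2.04-fold difference. H2-Ab1, the beta chain of I-A, had probes at 0.42 and 0.55, the first reading 346 on NCO, 425 on ACO and 482 on ASO. Ctss, the cathepsin that cuts the invariant chain, read 5039 on NCO, 5269.6 on ACO and 7520.2 on ASO. H2-Eb1, the beta chain of I-E, went the other way at -0.11 and was brightest on ACO (282 on NCO, 461 on ACO and 258 on ASO). In all, 6 of 8 measured members were higher and 2 lower, with a median of 0.33. H2-Aa, H2-Oa and H2-Ob were above background only on ASO, where the whole array had 843 such genes, against 251 only on NCO.

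Most measured complement genes were higher on ASO, C4b and the C1q chains among them. C4b, the component cut by C1, read 1746 on NCO, 3357 on ACO and 4170.1 on ASO, a 2.35-fold difference. The 3 chains of C1q, the pattern recognition part that microglia make, differed by 0.76 for C1qa, 0.62 for C1qb and 0.63 for C1qc. C1qa read 1599 on NCO, 1327 on ACO and 2748 on ASO. All 3 chains were lowest on ACO. C3, the central component, had probes at 0.75 and 0.58, and Serping1, the inhibitor of C1, at 0.33 and 0.44. Cfb, a protease of the alternative pathway, differed by 0.50. The members below 0 included the regulators Cd55 at -0.19 and Csmd1 at -0.25. In sum 13 of 19 measured members were higher and 6 lower, with a median of 0.33, and 6 were at least 1.5-fold higher. With probes kept only at a signal-to-noise ratio of at least 5, the median was 0.10.

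Itgam, the alpha chain of complement receptor 3 (CD11b), was lower on ASO by 0.83 and read 8535 on NCO, 3760.3 on ACO and 4782 on ASO. Its single probe thus read lower on both peptide arrays than on NCO. Itgb2, the chain it pairs with, read 101 on NCO, 104 on ACO and 143 on ASO, a difference of 0.35. Itgax, the alpha chain of the related receptor CD11c, read 80 on NCO, 83 on ACO and 192 on ASO, a difference of 0.90.

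**Figure D2:**
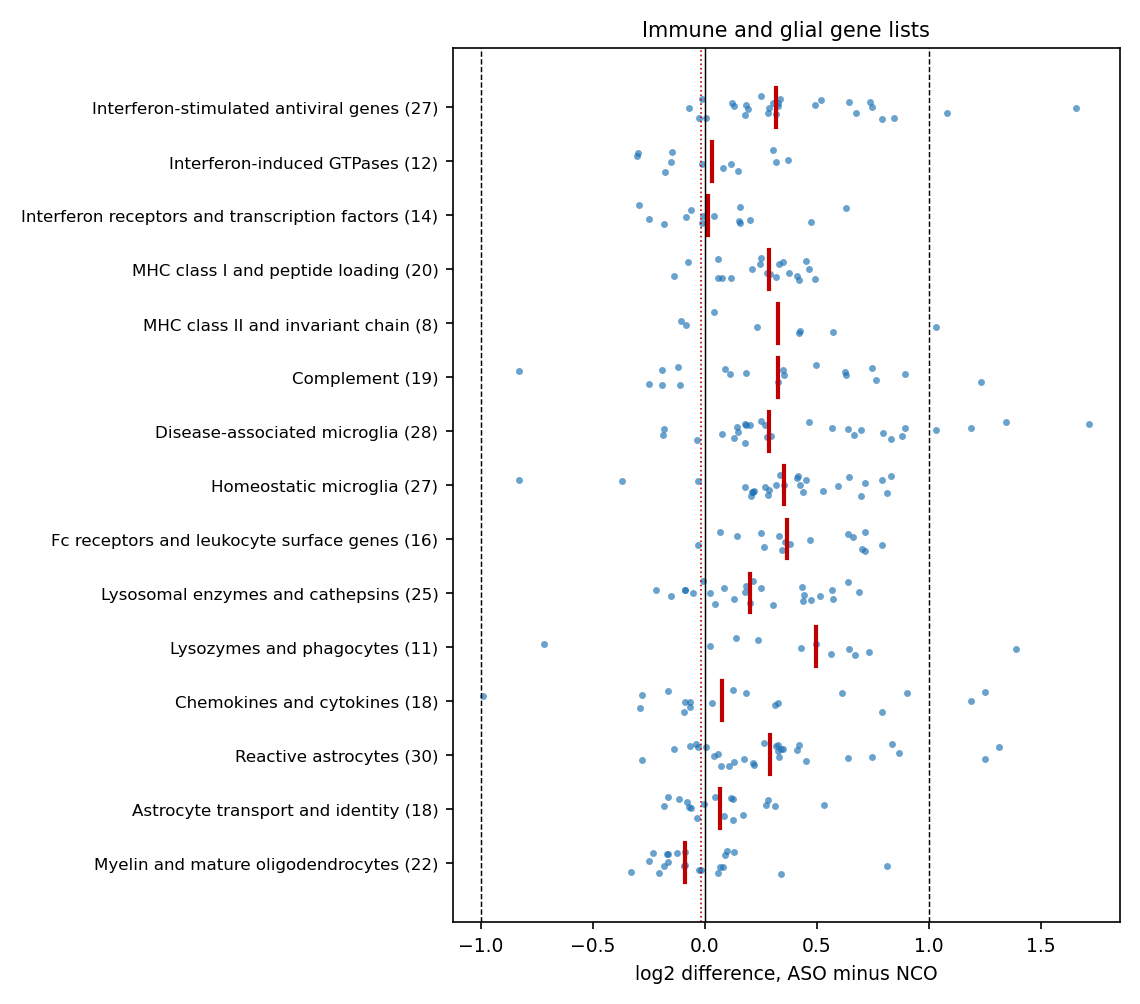
Log2 difference between the ASO and NCO arrays (horizontal axis) for the measured genes of 15 immune and glial lists, 1 point a gene, with the number of measured genes in brackets and the red bar at the list's median. The dashed lines mark 2-fold and the dotted line the median of all genes. Antiviral, class I, microglial and reactive astrocyte lists have medians from 0.28 to 0.35, and interferon-induced GTPases and astrocyte identity genes 0.03 and 0.07.

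Genes of disease-associated microglia, the phagocytic state described around amyloid plaques, held the largest difference of any list gene measured on both arrays. Of 28 measured, 25 were higher and 3 lower, with a median of 0.29, and 11 were at least 1.5-fold higher and none lower. Cd52, a short surface glycoprotein of leukocytes and microglia, read 161 on NCO, 244 on ACO and 644 on ASO, 3.29-fold higher on ASO. Cst7, an inhibitor of cathepsins that marks this state, read 54.5 on NCO, 46 on ACO and 216 on ASO. Ccl6, a chemokine of myeloid cells, read 116 on NCO, 203 on ACO and 329 on ASO. Of these, Cst7 was not higher on ACO than on NCO, and the other 2 were. Lilrb4a, an inhibitory receptor, differed by 1.03, Itgax by 0.90, Clec7a, the receptor for fungal beta-glucans, by 0.88, and Gpnmb, a lysosomal glycoprotein, by 0.80. Spp1, osteopontin, read 97.1 on NCO, 92.5 on ACO and 183 on ASO. Lilrb4a read 72.6 on NCO, 61.2 on ACO and 201 on ASO. Clec7a read 51.3 on NCO, 55.5 on ACO and 137 on ASO. Gpnmb read 109.9 on NCO, 87.8 on ACO and 228 on ASO. For all 3, ASO stood apart from both other arrays.

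The receptor pair that governs the state was higher too. Trem2, which binds lipids and amyloid, read 1661 on NCO, 1432 on ACO and 2723 on ASO. Tyrobp, its signalling adaptor, read 2096 on NCO, 2125 on ACO and 3769 on ASO. For Trem2 the ACO array was the lowest of the 3. Lpl, a lipase of this state, differed by -0.19 and its second probe by 0.29, so its direction was not settled. Ank, at -0.18, and Timp2, at -0.04 with a second probe at 0.36, were the other members below 0. Ccl3, Ccl4 and Lyz2 were among the 843 genes of the whole array above background only on ASO, against 251 only on NCO. Ccl3 and Ccl4, inflammatory chemokines, had ASO to NCO ratios of 3.77 and 3.64.

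The list of homeostatic microglia genes was also mostly higher, led by genes other than the receptors that define the resting state. Of 27 measured, 24 were higher and 3 lower, with a median of 0.35. Aif1, which encodes the microglial marker Iba1, read 764 on NCO, 958 on ACO and 1379.8 on ASO. Fcer1g, the signalling chain shared by Fc receptors, read 1538 on NCO, 1597 on ACO and 2694 on ASO. Ly86, the partner of the receptor Cd180, read 2495 on NCO, 3362 on ACO and 4125 on ASO. Receptors that define the resting state differed less: Cx3cr1, the fractalkine receptor, by 0.18 with a second probe at 0.42, Csf1r, the receptor microglia need to survive, by 0.21, Tmem119 by 0.27 and P2ry13 by 0.32. P2ry12, the ADP receptor that is lost in activated microglia, was the member closest to 0 (646 on NCO, 847 on ACO and 630.1 on ASO). Slc2a5, a fructose transporter, read 391 on NCO, 298 on ACO and 291 on ASO. Itgam, described above, is the third member below 0.

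Other leukocyte surface genes followed. Of 16 measured in that list 15 were higher and 1 lower, with a median of 0.37. Tlr2, a receptor for bacterial lipoproteins, read 78.8 on NCO, 97.4 on ACO and 159 on ASO. Cd14, the co-receptor for lipopolysaccharide, read 145 on NCO, 168 on ACO and 253 on ASO. Cd37, a tetraspanin, differed by 0.72 and Cd22, a sialic acid receptor, by 0.66. Cd84 was closest to 0 at -0.03. Fcgr4, Ptprc, Cd53, Cd48, Cd86 and Cd33 were above background only on ASO, and no member only on NCO. Their ASO to NCO ratios ran from 1.37 (Cd86) to 1.74 (Fcgr4). Over the whole array such genes numbered 843 for ASO and 251 for NCO.

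Lysosomal genes were higher by less. Of 25 measured, 19 were higher and 6 lower, the median was 0.20, and 2 reached 1.5-fold. Man2b1, a lysosomal mannosidase, read 1973 on NCO, 2243 on ACO and 3213 on ASO. Ctsd, the aspartic protease cathepsin D, read 8564 on NCO, 8816 on ACO and 13357 on ASO with a second probe at 0.33. Ctsz and Ctss both differed by 0.57, Grn, progranulin, by 0.52 and Npc2, which carries cholesterol out of the lysosome, by 0.44. Lamp1, a membrane protein of every lysosome, read 25637 on NCO, 21979 on ACO and 24106 on ASO. Psap, the saposin precursor, read 11141 on NCO, 9963 on ACO and 10728 on ASO. Both were below 0, as were Ctsk (-0.22), Asah1 (-0.15) and Ctsf (-0.09), among others. Ctse, above background only on ASO at 66.3, had an ASO to NCO ratio of 5.12. Its NCO signal of 12.9 lay below that of the negative controls (18.0).

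Of the list of lysozymes and other phagocyte genes, 10 of 11 measured were higher, with a median of 0.50. Mpeg1, perforin-2, a pore-forming protein of macrophages, read 798 on NCO, 1140.5 on ACO and 2168 on ASO, 2.62-fold higher on ASO. Among subunits of the phagocyte NADPH oxidase, Cyba had probes at 0.64 and 0.44, Ncf1 differed by 0.56 and Ncf4 by 0.67. Slc11a1, a metal transporter of the phagosome, differed by 0.73. Mrc1, the mannose receptor of border macrophages, was closest to 0 at 0.02. Lyz1 was the member below 0, at -0.72, and Lyz2 was above background only on ASO. These 2 lysozyme genes are close copies, and a probe may read both. This list's median moved with the constant added, the background method and the filter on dim probes, from 0.24 to 0.66.

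Chemokines and cytokines went both ways. Of 18 measured, 10 were higher and 8 lower, with a median of 0.08. Cxcl10, an interferon-induced attractant of T cells, read 131 on NCO, 167 on ACO and 382 on ASO. Ccl5, another attractant, read 115 on NCO, 100.1 on ACO and 259 on ASO. Ccl12, which attracts monocytes, read 65.1 on NCO, 91.6 on ACO and 149 on ASO. Ccl19, a ligand of Ccr7, was the lowest at -0.99 (281 on NCO, 126 on ACO and 117 on ASO). Its other probes gave -0.96 and -0.34. The brightest Ccl19 probe was low on ACO as well. Il1a, Il1b, Il6 and Tnf, the classical inflammatory cytokines, were not above background on either array, which sets no level for them beyond the array's sensitivity. Ccl2, Ccl3, Ccl4, Cxcl9, Tgfb1, Nfkb1 and Nfkb2 were above background only on ASO. The whole array had 843 such genes, against 251 only on NCO.

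**Figure D3:**
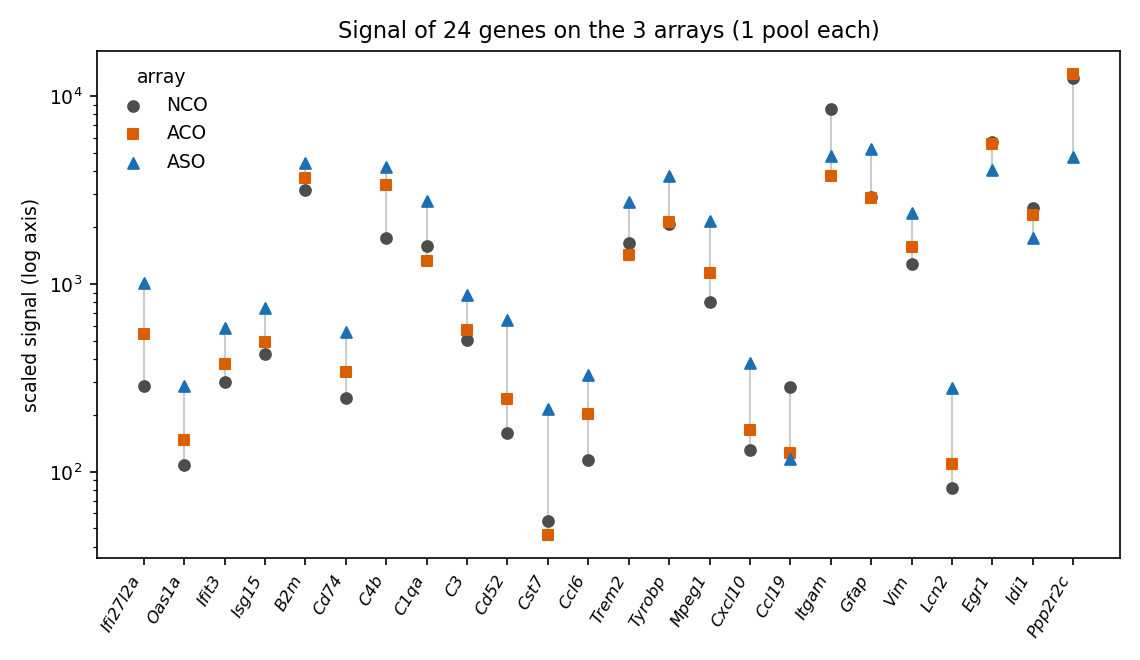
Scaled signal (log axis) of 24 genes on the NCO, ACO and ASO arrays, 1 pool each with no replicate. Cd52, Cst7, Lcn2 and Gfap show ASO apart from both other arrays, for Ifi27l2a and C4b ACO lies between, and Ccl19 and Itgam are highest on NCO.

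Reactive astrocyte genes were higher while genes of astrocyte identity were near 0. Of 30 measured reactive genes 25 were higher and 5 lower, the median was 0.29 and 6 were at least 1.5-fold higher. Gfap, the intermediate filament that marks reactive astrocytes, had 3 probes at 0.83, 1.10 and 0.62, the first of them reading 2893 on NCO, 2878 on ACO and 5199 on ASO. Vim, a further intermediate filament, read 1280.4 on NCO, 1581 on ACO and 2379.8 on ASO. Lcn2, lipocalin 2, an iron-binding protein that reactive astrocytes secrete, read 82.2 on NCO, 109.6 on ACO and 279 on ASO. For the first Gfap probe and the third the ACO array read below NCO, for the second it lay between NCO and ASO, as it did for Vim and Lcn2. Timp1, an inhibitor of matrix metalloproteases, was above background on ASO alone, with an ASO to NCO ratio of 2.95. Several members of this list also mark immune cells (C3, Cd14, Cxcl10, H2-T23, Psmb8). Ptgs2, cyclooxygenase 2, was the lowest at -0.28.

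Transporters and other identity genes of astrocytes gave 10 higher and 8 lower of 18, with a median of 0.07. Gjb6, connexin 30, differed by 0.53, Aqp4, the water channel of endfeet, by 0.31 with a second probe at -0.01, and Aldoc by 0.27. Slc1a3 and Slc1a2, the glutamate transporters, differed by 0.12 and 0.17. Aldh1l1, a general astrocyte marker, was closest to 0 at -0.01. All 3 metallothioneins, metal-binding proteins abundant in astrocytes, were higher: Mt1 by 0.51 (30276 on NCO, 29739.7 on ACO and 43253 on ASO), Mt2 by 0.40 and Mt3, the brain form, by 0.29.

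Genes with several probes gave a second reading of the same pools. Of the immune, microglial and reactive astrocyte list genes, 39 had a second probe above background, and 31 of these second probes were higher on ASO (79.5%), with a median of 0.22. The first probes of the same 39 genes were higher for 25, with a median of 0.15, so the readings differed in direction for some genes. Over all 3034 genes with a second probe, 51.7% of second probes were higher, with a median of 0.01. Of 27 genes at least 1.5-fold higher by their first probe and with a second one, the second was on the same side for 22 and past 1.5-fold for 4. For the 9 such lower genes, 5 second probes were on the same side and 2 past 1.5-fold.

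**Figure D4:**
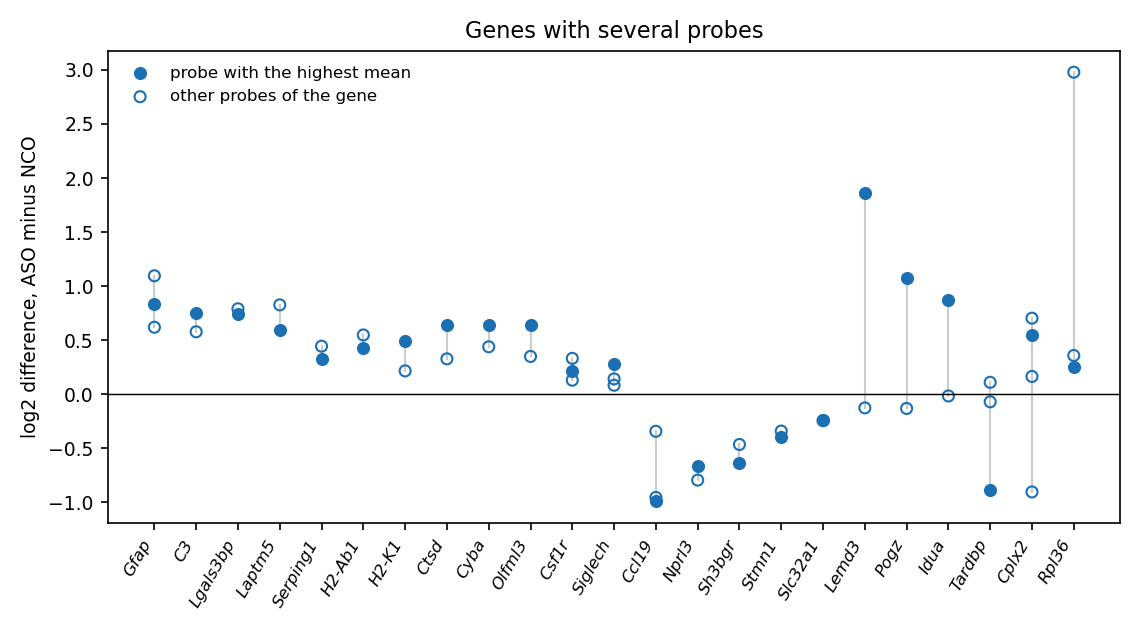
Log2 difference between the ASO and NCO arrays (vertical axis) of each probe above background for 23 genes with several probes, filled for the probe with the highest mean signal. Probes of Gfap, C3, Lgals3bp and Nprl3 lie on the same side of 0, and those of Lemd3, Pogz, Tardbp and Cplx2 on both sides.

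Markers of other cells that could bring immune transcripts were looked at in the same way. Of 16 T and NK cell markers 4 were measured, and their signals summed to 977, 971 and 1105 on NCO, ACO and ASO. Of the 4 measured, 3 were higher on ASO and 1 lower, with a median of 0.13 and a highest of 0.43. Another 1 was above background only on ASO, where the whole array had 843 such genes, against 251 only on NCO. Cd3e, a T cell gene, was above background on both arrays and brighter on ASO. Cd3d, Cd3g, Cd8a and Gzmb were at background on both arrays. Blood and globin genes summed to 69512, 66954 and 71990 on the 3 arrays, with 7 of 11 measured higher. Hbb-b2, a globin gene, was the member farthest from 0 at 0.74, while Hba-a1 differed by 0.09. Leptomeningeal genes were higher in 13 of 17, with a median of 0.21 and sums of 43440, 46779 and 48477, led by Col1a1 at 0.57. Choroid plexus genes were higher in 21 of 26, with a median of 0.14, and sums of 57449, 58875 and 56184, which include Ttr, itself lower by 0.36. Their median was 0.28 for ACO against NCO and -0.15 for ASO against ACO. Endothelial genes gave 11 higher and 10 lower of 21. The part of these tissues in the immune differences was not tested.

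Oligodendrocyte genes did not share the shift. Of 22 myelin genes 8 were higher and 14 lower, with a median of -0.09. Cnp, an enzyme of the myelin sheath, read 8581 on NCO, 6891 on ACO and 7293 on ASO. Klk6, a protease of mature oligodendrocytes, stood out at 0.81 and was highest on ACO (119 on NCO, 329 on ACO and 247 on ASO). Precursor genes had a median of -0.04 over 12. Pcdh15 was their lowest at -0.62, while its second probe read 0.01.

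Neuronal marker lists had medians slightly below or near 0. Of 17 dentate granule cell genes 11 were lower, with a median of -0.09, against 53.7% lower and a median of -0.02 over all genes. C1ql2, a synaptic organiser of mossy fibres, read 280.3 on NCO, 261 on ACO and 199 on ASO. Calb1, calbindin, read 1219 on NCO, 1304 on ACO and 914 on ASO with a second probe at -0.07. CA1 genes gave 9 lower of 12 and a median of -0.05, and CA3 and CA2 genes 9 higher of 16 and 0.05. Interneuron markers and neuropeptides gave 12 lower of 17 and a median of -0.15. Slc32a1, the vesicular transporter of GABA, had both probes at -0.24, Lamp5 was at -0.43 and Tac1 at -0.33. Gad2, which makes GABA, went the other way (2139 on NCO, 2223 on ACO and 2897 on ASO), while Gad1 read 5171 on NCO, 5019 on ACO and 4519 on ASO. Sst and Pvalb, which mark the main interneuron classes, were at 0.05 and 0.06. No member of these 4 lists reached 1.5-fold.

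Immediate early genes, which follow neuronal firing, gave 17 lower and 11 higher of 28, with a median of -0.07 and none at 1.5-fold. Over all genes 53.7% were lower, with a median of -0.02, so the list as a whole lay near the rest. Egr1, a zinc finger factor, read 5695 on NCO, 5583 on ACO and 4067 on ASO. Nr4a1, an orphan nuclear receptor, read 7519 on NCO, 6991 on ACO and 5526 on ASO. Both were lowest on ASO. Fos differed by -0.39, Egr2 by -0.41 and Bdnf, a neurotrophin under activity control, by -0.35. Vgf, a neuropeptide precursor also under activity control, was higher (8648 on NCO, 8515 on ACO and 12205 on ASO). Jun was at 0.26. Fosb and Homer1 were close to 0 at 0.01 and 0.02. Of new neuron genes, Stmn1 had probes at -0.40 and -0.34, and Tbr1 read -0.58 by one probe and -0.11 by the other.

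Receptor and release genes were spread to both sides. Glutamate receptor genes had a median of -0.01 over 38, with Grik5 highest at 0.43 and Grik2 lowest at -0.45 with a second probe at -0.06. GABA receptor genes gave 11 lower of 15, against 53.7% of all genes, and a median of -0.09. Gabra4 was the one past 1.5-fold, at 0.80, and read 211 on NCO, 349 on ACO and 404 on ASO, so it was higher on ACO too. Of 37 genes of vesicle release 17 were higher and 20 lower. Rab3a, a small GTPase of vesicles, read 13828 on NCO, 15938 on ACO and 22589 on ASO. Syn1, a synapsin that tethers vesicles, read 7429 on NCO, 9724 on ACO and 11388 on ASO. Syt1, the calcium sensor, read 24144 on NCO, 21900.0 on ACO and 33797 on ASO. Syn2, another synapsin, lay on the other side at -0.39. Cplx2, complexin 2, gave no settled direction, with probes at 0.55, -0.90, 0.16 and 0.70. Ion channel genes gave 16 higher and 16 lower, from Kcna1 at -0.43 to Cacnb4 at 0.74.

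Genes of the amyloid pathway itself were close to 0. App, the precursor, read 25490.0 on NCO, 24267 on ACO and 22093 on ASO. Apoe, the lipid carrier, differed by 0.20. Clu, clusterin, a secreted chaperone, was the member farthest from 0 (43211 on NCO, 43399 on ACO and 63590.5 on ASO). The median of 28 measured genes was 0.07. The brain's cholinergic genes had a median of -0.08 over 9 measured, and Chat, the enzyme that makes acetylcholine, was above background only on ASO.

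Genes of the cholesterol list leaned lower. Of 36 measured, 24 were lower and 12 higher, against 53.7% of all genes lower, with a median of -0.15 and none past 1.5-fold. The median was -0.084 with the surrounding spots subtracted. As a list, ACO against NCO had a median of -0.085 and ASO against ACO -0.003, so the list was little lower on ASO than on ACO. Enzymes of the pathway led: Idi1, an isomerase early in the pathway, read 2524 on NCO, 2336 on ACO and 1752 on ASO. Sc5d, a desaturase near its end, read 1014 on NCO, 869 on ACO and 696 on ASO. Msmo1, a sterol oxidase, read 11501 on NCO, 11197 on ACO and 8255 on ASO. Hmgcs1, the synthase before the rate-limiting step, differed by -0.40. On ASO these 4 were lower than on either other array. Among the members above 0 were Npc2 at 0.44 and Abca1, a transporter that exports cholesterol from cells, at 0.31. Fatty acid oxidation and PPAR genes had a median of -0.07 over 34, from Acsl4 at -0.40 to Ucp2, a mitochondrial carrier, at 0.58. Plin2, the coat of lipid droplets, was at 0.43.

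Stress pathways showed small medians, beside 46.3% of all genes higher and 53.7% lower. Endoplasmic reticulum stress genes were lower in 20 of 26, with a median of -0.13: Hspa5, the main chaperone there, read 8651 on NCO, 7986 on ACO and 7119.6 on ASO. Xbp1, a transcription factor of the response, read 6789 on NCO, 6447 on ACO and 5514 on ASO. Cytosolic chaperones were lower in 15 of 20, with a median of -0.05. Dnajb1 differed by -0.35, and Hspa8 was higher at 0.48 with a second probe at 0.33. NRF2 and antioxidant genes were higher in 23 of 31, with a median of 0.05, none past 1.5-fold. Gpx3 was highest at 0.37 and Srxn1 lowest at -0.31. Glucocorticoid targets had a median of -0.01, with Fkbp5 at 0.17 and Tsc22d3 at -0.28, and their one large member was Lcn2.

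Against 46.3% of all genes, ribosomal protein genes were higher in 57 of 74, with a median of 0.14. Subunits of oxidative phosphorylation were higher in 43 of 68, with a median of 0.05. Rpl35 was highest among the ribosomal protein genes (24968 on NCO, 24882 on ACO and 39373 on ASO). The lowest was Rps7 at -0.42. Their transcripts have many near-identical pseudogene copies, and a probe may read several: Rpl36 had probes at 0.25, 2.98 and 0.36. Ndufa8 and Atp5o, of complexes I and V, were at 0.81 and 0.80.

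**Figure D5:**
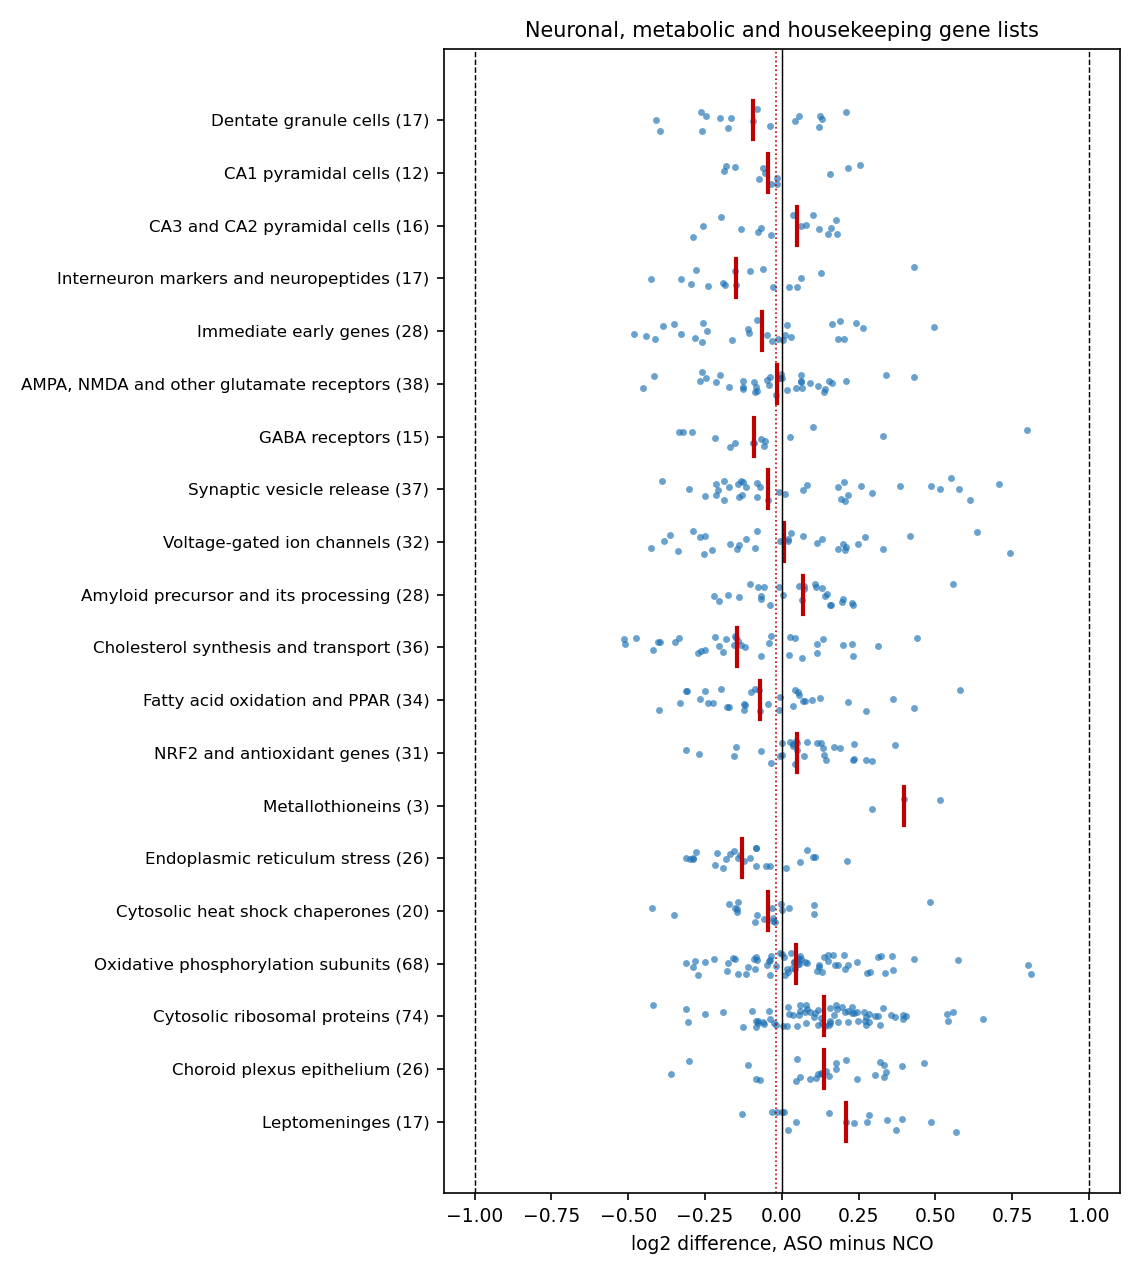
Log2 difference between the ASO and NCO arrays (horizontal axis) for the measured genes of 20 neuronal, metabolic, housekeeping and neighbouring-tissue lists, 1 point a gene, the number of measured genes in brackets and the red bar at the list's median. The dashed lines mark 2-fold and the dotted line the median of all genes. Medians run from -0.15 for interneuron and cholesterol genes to 0.40 for the 3 metallothioneins, and no gene shown reaches 2-fold.

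Among genes outside the immune lists, a few single probes stood far from 0. Ppp2r2c, a regulatory subunit of protein phosphatase 2A, was the lowest gene of all at -1.40 and read 12527 on NCO, 13142 on ACO and 4732 on ASO, with NCO and ACO close and ASO apart. Ppp5c, a different serine/threonine phosphatase, read 619 on NCO, 657 on ACO and 1469 on ASO. The other 24 phosphatase genes measured lay between -0.38 (Ppm1b) and 0.34 (Ppp1r12a). Fgf23, a hormone of phosphate balance, read 3500.1 on NCO, 4268 on ACO and 9153 on ASO. Pou1f1, a pituitary transcription factor, read 2282 on NCO, 2932 on ACO and 4823 on ASO. Pam, which amidates neuropeptides, read 772 on NCO, 415 on ACO and 343 on ASO, thus low on both peptide arrays. Casp2, a caspase, read 1169 on NCO, 1193 on ACO and 582 on ASO. Ugcg, which makes glucosylceramide, read 479 on NCO, 389.6 on ACO and 233 on ASO. Each of these 7 genes had 1 probe in the comparison. Whether the probes of Fgf23 and Pou1f1 read only their own genes was not tested. Prl, a pituitary hormone gene, was not above background on either array.

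Where a second probe was there, it often differed. Lemd3, an inner nuclear membrane protein, was the highest gene at 1.86 by its brightest probe (69.4 on NCO, 373 on ACO and 385 on ASO). Its other probe gave -0.13. This rank depends on the probe chosen for each gene: probes not chosen read higher for Rpl36 (2.98) and Drosha (2.88). Pogz gave 1.08 and -0.13, Idua, a lysosomal iduronidase, 0.87 and -0.02, and Tardbp, which encodes TDP-43, -0.88 and -0.07 with one more probe at 0.11. Nprl3, an inhibitor of mTORC1, was lower by both probes, -0.66 and -0.79, and was low on ACO too (930.0 on NCO, 616 on ACO and 569 on ASO). Sh3bgr was lower by both as well, -0.64 and -0.47, but was highest on ACO (2143 on NCO, 3306 on ACO and 1357 on ASO). Further genes among the 20 highest were Trip10, Cby1 (1.07), Pold1 (1.02), P3h4 (0.97), Aoc2 (0.95), Ccdc114 (0.94), Plxna4 (0.92), Lepr, the leptin receptor (0.89), and Apoc1, an apolipoprotein (0.88). Trip10, Pold1 and Plxna4 had ACO near ASO: Trip10 read 211 on NCO, 535 on ACO and 551 on ASO. Further genes among the 20 lowest were Tbpl1 (-0.88), Ppp1r12c (-0.84), Shc4 (-0.82), Cabp5 (-0.81), Cobl (-0.74), Zfp442 (-0.71), Acap2 (-0.69), Vstm2a (-0.67), Tbc1d30 (-0.66) and Fkbp14 (-0.66). Ocel1 was there too at -0.70, with a second probe at 0.35. With the surrounding spots subtracted, Cobl (-0.43), Zfp442 (-0.53), Acap2 (-0.36), Vstm2a (-0.38), Tbc1d30 (-0.44) and Fkbp14 (-0.34) fell short of 1.5-fold. Tbpl1, Ppp1r12c, Shc4, Cabp5 and Ocel1 stayed past it. The other genes past 2-fold were the dim Tbx22 (-1.11) and genes of predicted or uncharacterised name: 4933431I19Rik, Rpl34-ps1, 4833405L11Rik and Gm16378 higher, and Gm3893 and LOC100503421 lower.

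Genes above background on 1 array alone were 843 for ASO and 251 for NCO. Of these, 27 and 6 had a ratio to the other array of at least 2. With predicted and clone names left out, the ratios on ASO were led by Ctse, Glycam1 (4.08), Ccl3, Ccl4 and the odorant receptor gene Olfr178 (3.22). Hcar2, the niacin receptor found on myeloid cells, had a ratio of 2.83. The NCO signals of Ctse, Glycam1, Olfr178 and Hcar2 lay between 11.9 and 15.1, below the 18.0 of the negative controls. Ifi202b read 59.8 on NCO, 84.0 on ACO and 153 on ASO, a ratio of 2.56. On NCO, again without such names, the ratios were led by Has2os (2.66), Akr1c12 (2.36) and Scyl3 (2.08). Has2os and Akr1c12 read 12.9 and 8.94 on ASO, where the negative controls read 16.0. ASO also had more probes above background in all, 53.7% against 50.9%, and its spike-in controls read higher, whose part in these counts was not tested.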

How the data were processed

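Hippocampal RNA, 1 pool of 10 mice a group, was hybridised to Agilent mouse arrays of 45220 spots. The deposited files hold the foreground and background intensity of each spot as read by GenePix Pro 6.1.0.4, per the file headers. The deposited files also give the percent of saturated pixels, and a signal-to-noise score and a flag score of each spot, as GenePix Pro wrote them, per the file headers. The authors' value table holds 475 probes as background-subtracted intensity whose scaling is not stated. It was used as an alternative only.

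The spot median was corrected with normexp (limma 3.58.1, R 4.3.3), scaled to each array's 75th percentile over gene spots, given a constant of 50 and turned to log2. Spots of a probe were averaged, and probes with at least 50% saturated pixels on both arrays (3) were left out. Probes were named through RefSeq accessions (26575), symbols (2602) or synonyms (490), or kept the file's name (1790). Normexp stood in for the scanner-processed signal first planned for. The steps were checked on simulated arrays. With 1 array a group no test was run.

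Named genes are the 20 highest and 20 lowest (lower quartile of mean signal left out, predicted names left out), and up to 8 members farthest from 0 and the one closest in each list. Also named are 2-fold genes whose probes disagree, and the leading ratios of genes above background on 1 array. The members and gene lists were chosen with earlier results of these data known. Other list genes are named for their role. Promoter motifs were not run, and a few genes are not reported here. The 12 other settings and 1 added after seeing the data, the spike-in scale, are in the closing section.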

Additional observations from a re-analysis of the deposited data

Results flagged for a closer look

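The control spots, which entered no comparison of genes, differed between the arrays. The 6 E1A spike-in control probes above background were all higher on ASO than on NCO after scaling, by a median of 0.312 on the log2 scale. Over all 15 control probes above background, 15 were higher on ASO, from 0.10 to 0.68. With 1 array a group the difference has no replicate check.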

How the results depend on the processing

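No array can be left out of a comparison of 1 array with 1 array, and no paired analysis was possible because each group has 1 array with the same number. The 2-fold counts rest on low numbers. The 23 genes at least 2-fold higher became 41 with a constant of 10 and 8 on the spike-in scale. The 5 genes at least 2-fold lower became 2 with a constant of 100, 3 without background subtraction, 3 with spot means (1 of them among the 5), 12 with the dark area kept and 21 on the spike-in scale. At 1.5-fold, 35 lower genes became 59 with a constant of 10 and 1034 on the spike-in scale, and 216 higher genes became 44 on that scale. With the surrounding spots subtracted, 24 genes were 1.5-fold lower, 19 of them among the 35. On the higher side 201 were, 176 of them among the 216. Between 14 and 23 of the 23 higher genes were called again under 12 other settings.

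The spike-in scale, chosen after seeing the data, moved the median of all genes to -0.33. It put the list medians at 0.0054 for interferon-stimulated antiviral genes, -0.028 for class I, 0.013 for class II, 0.015 for complement, -0.025 for disease-associated and 0.040 for homeostatic microglia, 0.055 for Fc receptors and leukocyte surface genes, -0.11 for lysosomal enzymes, 0.18 for phagocytes, -0.022 for reactive astrocytes, -0.46 for cholesterol, -0.44 for endoplasmic reticulum stress and -0.46 for interneurons. By construction this scale subtracts the same 0.312 from every gene. Of the 32 lists (of 52 with 4 or more genes) with a median above 0, 26 were below 0 on it and 6 above. Among the 26 were apoptosis (-0.21), choroid plexus (-0.17), collagens (-0.20), ribosomal proteins (-0.18), leptomeninges (-0.10), T and NK cells (-0.18) and thalamus (-0.19).

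Under those 12 settings, the spike-in scale apart, every one of the 13 list medians leading the text kept its sign. Complement was at 0.21 with no filter on dim probes and 0.10 at a signal-to-noise ratio of at least 5, where Fc receptors and leukocyte surface genes were at 0.47. Interneurons were at -0.045 with no filter. Phagocytes were at 0.66 with a constant of 10, 0.36 with 100, 0.38 without background subtraction, 0.24 with no filter, 0.60 with plain subtraction and 0.40 with spot means. Thalamus genes turned to -0.052 at a ratio of at least 5. None of the 135 named genes turned its sign among those at least 1.5-fold apart. Their sizes were less steady. Over all 13 settings and the authors' values, 348 values of named genes moved by at least the median spot SD (0.10) and 1424 did not. Dim genes and 1 array a group are the main limits.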

Other observations

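Outside the gene lists, further genes of myeloid and other immune cells were at least 1.5-fold higher on ASO. They were picked after their values were seen and carry no count as support. Capg, an actin-capping protein of macrophages, differed by 0.87, Unc93b1, which carries Toll-like receptors to the endosome, by 0.76, and Bcl2a1d, a survival factor of leukocytes, by 0.79. Gpr84, a fatty acid receptor of activated microglia, differed by 0.67, Cnr2, the cannabinoid receptor of immune cells, by 0.60, and Inpp5d, the phosphatase SHIP1, by 0.60. Lgals1, S100a4 and Tagln2 were at 0.66, 0.67 and 0.74, and the second probes of S100a4 and Tagln2 gave 0.54 and 0.30.

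Of the 156 genes of no list that were at least 1.5-fold higher, 53 had predicted or uncharacterised names (34.0%), against 10.0% of all 12308 genes of no list. Of the 30 lower ones 3 did. Rn18s, the 18S ribosomal RNA, was higher by 0.70.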
